A study of Mus musculus with 23 samples.

Results

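The genes described here form the core of transforming growth factor beta (TGF-beta) signalling in microglia: the ligand Tgfb1, its activating anchor Nrros, the receptors Tgfbr1 and Tgfbr2, the signal carriers Smad2, Smad3 and Smad4, the inhibitor Smad7, and the nuclear repressors Ski and Skil. They were chosen by name, 10 of the 35976 genes in the deposited count table, and all 10 were among the 16121 genes with enough reads to be tested. No member was called changed in any of the 3 comparisons by the quasi-likelihood test of edgeR at a Benjamini-Hochberg adjusted p under 0.05, and the closest to that threshold were Ski and Smad3, both at higher levels in Abstinence than in Maintenance libraries. The third smallest unadjusted p was that of Nrros, at a lower level in Abstinence than in Saline libraries.

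TGF-beta is secreted in a latent complex, bound to its own propeptide, and must be freed before it can signal. On microglia the transmembrane protein NRROS (also called LRRC33) tethers latent TGF-beta1 to the cell surface, where integrins release it, and mice without Nrros lose normal microglial identity. The freed ligand joins the type II receptor TGFBR2 and the type I receptor TGFBR1, which phosphorylates SMAD2 and SMAD3; these enter the nucleus with SMAD4, while SMAD7 blocks the receptor and SKI and SKIL (SnoN) hold SMAD target genes silent.

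Microglia, the resident macrophages of the brain, came from the striatum of mice (C57BL/6J males, 9 weeks old per the labels) that had pressed a lever for intravenous infusions in daily 2-hr sessions over 15 days. The 7 Abstinence libraries come from mice that took methamphetamine at 0.05 mg/kg per infusion and then spent 21 days in the home cage without drug. The 8 Maintenance libraries come from mice on the same methamphetamine schedule, with microglia taken right after the last session, and the 8 Saline libraries from mice that gave themselves saline, also sampled right after the last session. Abstinence libraries thus differ from Maintenance libraries in time since the last session, and from Saline libraries in both that time and drug history. They may also differ in age at sampling, although the labels give 9 weeks for every group. The effects of these cannot be told apart. The labels do not say that each library is a separate animal, so p-values measure the spread between these libraries, which may be technical.

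Library totals ran from 71224927 to 94827095 counts in Abstinence, 54970954 to 94562470 in Maintenance and 55378997 to 84640226 in Saline libraries. Levels are given as CPM, the counts scaled to a common library total, after TMM scaling, a correction for differences in RNA composition between libraries. The labels call the tissue neuronal although the cells are labelled microglia. The summed level of 6 microglia markers, P2ry12 and Tmem119 among them, was 44514 to 51755 CPM in Abstinence, 35111 to 52543 CPM in Maintenance and 41991 to 54019 CPM in Saline libraries, against 31.5 to 114, 28.1 to 376 and 19.8 to 96.1 CPM for 8 striatal neuron markers in the same 3 groups. Maintenance replicate 8 stood apart, with 42347 CPM over 7 choroid plexus and ependyma markers, where no other library exceeded 78.6 CPM. Fewer genes were detected in Maintenance replicate 6 (12459) and replicate 7 (12740) than in any other library (14727 to 17034). Since RNA was pooled from many cells, fewer cells of a type and less RNA per cell cannot be told apart.

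The promoters of Nrros, Ski and Smad3, are shown because these members had the 3 smallest unadjusted p-values. Each is the window from 250 bases before to 50 bases after the RefSeq start, 5′ to 3′ on the gene's own strand, on GRCm38.p6. Capitals mark 2 motifs, each searched on both strands with overlapping matches counted separately: CAGAC, the core of an element that SMAD3 and SMAD4 bind, and GGCGC, a GC-rich motif also known to bind SMAD proteins. The windows are chr16:32165545-32165844 for Nrros, chr4:155222486-155222785 for Ski and chr9:63757945-63758244 for Smad3, all on the minus strand.
Nrros: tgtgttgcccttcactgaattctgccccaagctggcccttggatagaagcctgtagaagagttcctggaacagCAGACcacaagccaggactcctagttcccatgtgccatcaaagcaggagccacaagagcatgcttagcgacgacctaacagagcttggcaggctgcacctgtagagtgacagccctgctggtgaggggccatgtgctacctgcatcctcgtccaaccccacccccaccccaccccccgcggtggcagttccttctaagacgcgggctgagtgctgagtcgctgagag
Ski: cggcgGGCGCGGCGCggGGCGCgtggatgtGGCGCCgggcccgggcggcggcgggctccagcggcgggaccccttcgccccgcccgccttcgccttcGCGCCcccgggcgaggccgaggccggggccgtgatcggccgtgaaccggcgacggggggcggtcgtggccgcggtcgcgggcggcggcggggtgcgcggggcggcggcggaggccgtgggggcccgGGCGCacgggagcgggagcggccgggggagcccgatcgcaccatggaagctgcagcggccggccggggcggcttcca
Smad3: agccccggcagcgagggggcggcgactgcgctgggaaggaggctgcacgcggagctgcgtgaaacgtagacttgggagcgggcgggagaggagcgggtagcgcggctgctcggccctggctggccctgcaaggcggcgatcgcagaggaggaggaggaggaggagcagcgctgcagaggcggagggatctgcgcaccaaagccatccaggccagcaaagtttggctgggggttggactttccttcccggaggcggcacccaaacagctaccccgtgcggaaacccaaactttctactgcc
The Nrros window held 1 CAGAC, 177 bases before the start, and no GGCGC. The Ski window held 7 matches of GGCGC and no CAGAC, and the Smad3 window held neither. Of 32851 RefSeq promoter windows of the same 300 bases, 49.6% held CAGAC and 36.9% held GGCGC, so these matches describe the sequences and mark no bound site.

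Levels compared between genes were divided by exon length (CPM per kilobase of exon, GENCODE vM21). The receptor Tgfbr1 stood highest, at 352 ± 42.2 CPM per kilobase (SD over all 23 libraries), rank 112 of the 14587 tested genes with a usable length. Nrros followed at 92.5 ± 14.9, rank 451. Skil, at 51.2 ± 10.1, Tgfbr2, at 26.9 ± 3.96, and Ski, at 19.4 ± 2.54, came next. The SMADs were lower: Smad7 averaged 11.2 ± 2.07, Smad3 8.51 ± 1.51, Smad2 6.13 ± 0.869 and Smad4 3.44 ± 0.963 CPM per kilobase. Tgfb1 came last at 0.361 ± 0.139, rank 11419. The ranges of neighbours in this order overlapped over the 23 libraries, except Tgfbr1 above Nrros and Smad4 above Tgfb1. Within a library the order was steadier: the first 5 steps, from Tgfbr1 down to Smad7, held in 23 of 23 libraries, Smad7 above Smad3 in 21, Smad3 above Smad2 in 22 and Smad2 above Smad4 in 22.

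**Figure D1:**
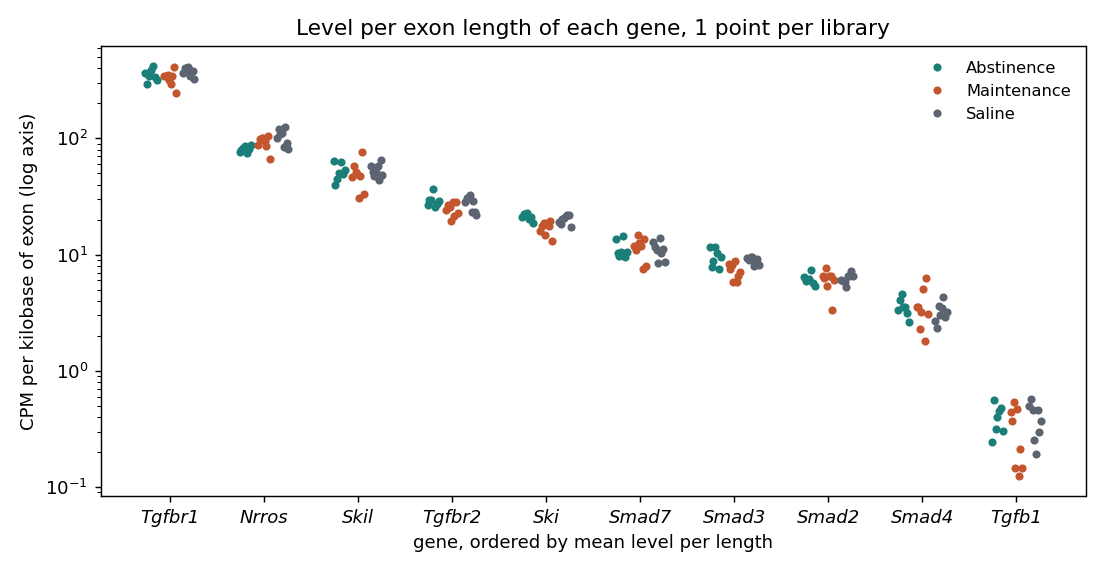
Level of each member in CPM per kilobase of exon on a log axis, 1 point per library, with Abstinence, Maintenance and Saline libraries side by side. The genes run from Tgfbr1, mean 352, to Tgfb1, mean 0.361, and within each gene the 3 groups occupy overlapping ranges.

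Tgfb1, the ligand, lies on chromosome 7 (25687002 to 25705077, plus strand, GRCm38) and had 44 to 259 counts per library. In Abstinence libraries its level was 1.22, 2.82, 1.60, 2.04, 2.29, 2.40 and 1.52 CPM. Maintenance libraries had 0.631 CPM at the lowest, 1.46 CPM at the median and 2.70 CPM at the highest, and Saline libraries 0.977, 2.10 and 2.87 CPM. The groups overlapped almost completely, and the Maintenance libraries split into 4 at or above 1.85 CPM (replicates 1, 2, 3 and 5) and 4 at or below 1.07 CPM (replicates 4, 6, 7 and 8). The log2 fold change was 0.37 ± 0.47 (SE) in Abstinence against Maintenance, 0.02 ± 0.47 in Abstinence against Saline and -0.35 ± 0.45 in Maintenance against Saline, with adjusted p of 0.897, 0.999 and 0.872. Microglia are known as a main source of TGF-beta1 in the brain, so a level this low limits what the row can say: how reads were assigned to it is not given in the sources used here, and no other gene of the table overlaps it. The other ligands, named after their values were seen, were also low. Tgfb2 had a median of 9.26 CPM in Abstinence, 8.11 CPM in Maintenance and 5.42 CPM in Saline libraries, with 137 CPM in the choroid plexus-rich Maintenance replicate 8, and Tgfb3 had medians of 1.10, 0.0539 and 0.386 CPM in the same 3 groups.

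Nrros, the tether that presents latent TGF-beta1, lies on chromosome 16 (32142785 to 32165594, minus strand). Abstinence libraries had 320.5, 329, 345, 360.5, 315, 341 and 365 CPM. Maintenance libraries had 276 CPM at the lowest, 403 CPM at the median and 440 CPM at the highest, and Saline libraries 337, 435 and 524 CPM. All 7 Abstinence libraries lay below the medians of both other groups and close together, while Saline libraries spread widely and 3 of them (replicates 5, 7 and 8, at 351, 380 and 337 CPM) reached down into or near the Abstinence range. Nrros averaged 339 ± 19.1 CPM in Abstinence and 429 ± 69.2 CPM in Saline libraries (SD, n = 7 and 8), a fold of 0.791 (95% interval 0.692 to 0.905), with unadjusted p = 0.00137 and edgeR adjusted p = 0.450. Across all genes, 4.39% had an unadjusted p under 0.05 in this comparison, and 0.0186% were called (0.0124% higher and 0.0062% lower).

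In Abstinence against Saline the call of Nrros depended on the fit, while the log2 fold change stayed between -0.40 and -0.28. Nrros passed in 2 of 34 settings, which called 184 and 56 of all genes, against 3 in the reported fit. With limma voom and sample quality weights its log2 fold change in Abstinence against Saline was -0.38 ± 0.07 (adjusted p = 0.00894), and in the 17 libraries of the second deposited table it was -0.40 ± 0.07 (edgeR adjusted p = 0.0122), against -0.34 ± 0.09 with all libraries in edgeR. Those 17 lack Maintenance replicates 6, 7 and 8 and Saline replicates 5, 6 and 8. Saline replicates 5 and 8 had the lowest Nrros of their group (351 and 337 CPM) and replicate 6 the highest (524 CPM). Oligodendrocyte markers had a higher median in Abstinence than in Saline libraries. Their summed level was 1834 to 4737 CPM in Abstinence libraries (median 3578) and 648 to 5414 CPM in Saline libraries (median 1747). The 3 Saline libraries of lowest Nrros also had the highest summed oligodendrocyte markers of their group, 3483, 3387 and 5414 CPM in replicates 5, 7 and 8 against 648 to 1888 CPM in the other Saline libraries. The Abstinence group shared this order in part. From replicate 4 through 3, 2 and 1 to 5, oligodendrocyte signal rose from 1834 to 3695 CPM while Nrros fell from 360 to 315 CPM. Replicates 6 and 7, with the most oligodendrocyte signal (4057 and 4737 CPM), had 341 and 365 CPM of Nrros, the latter the highest of the group. The part of cell mixture in the Nrros difference was not tested. Over all 23 libraries, centred on group means, Spearman's rho between Nrros and the oligodendrocyte marker mean was -0.15. With the mean levels of oligodendrocyte and neutrophil markers as covariates, the log2 fold change was -0.28 ± 0.14 (adjusted p = 1). The summed neutrophil markers were 10.2 to 150 CPM in Abstinence libraries, with the defining genes Mpo, Elane, Ly6g and Ltf at 0 in all 7, and 44.9 to 860 CPM in Saline libraries. Against Maintenance, Nrros in Abstinence libraries differed by -0.18 ± 0.09 on the log2 scale (adjusted p = 0.504), and by -0.25 ± 0.08 without Maintenance replicate 8, the lowest of all 23 libraries (adjusted p = 0.145). Maintenance against Saline gave -0.16 ± 0.09 (adjusted p = 0.546).

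Tgfbr1, the type I receptor kinase, lies on chromosome 4 (47353222 to 47414931, plus strand). It had 1923 CPM at the lowest, 2231 at the median and 2711 at the highest in Abstinence libraries, 1588, 2229 and 2655 CPM in Maintenance libraries, and 2132, 2483 and 2656 CPM in Saline libraries. The ranges overlapped throughout, and 7 of 8 Maintenance libraries lay below the Saline median. The log2 fold change in Maintenance against Saline was -0.18 ± 0.08, with unadjusted p = 0.0336 and edgeR adjusted p = 0.358, and it was -0.13 ± 0.07 without Maintenance replicate 8, again the lowest of all libraries. In Abstinence it was 0.09 ± 0.08 against Maintenance and -0.09 ± 0.08 against Saline (adjusted p = 0.829 and 0.999).

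Tgfbr2, the ligand-binding type II receptor, lies on chromosome 9 (116084293 to 116175360, minus strand). Abstinence libraries averaged 239 ± 28.6 CPM, Maintenance libraries 201 ± 26.9 CPM and Saline libraries 224 ± 33.1 CPM. All 7 Abstinence libraries lay above the Maintenance median of 203 CPM, and the ranges, 211 to 298 CPM in Abstinence and 159 to 232 CPM in Maintenance libraries, overlapped. The log2 fold change in Abstinence against Maintenance was 0.25 ± 0.10 (unadjusted p = 0.0160, adjusted p = 0.274), and 0.19 to 0.28 over all settings tried. It was 0.09 ± 0.10 in Abstinence against Saline and -0.16 ± 0.09 in Maintenance against Saline. With oligodendrocyte and neutrophil markers as covariates, the values against Saline were 0.28 ± 0.14 in Abstinence and 0.01 ± 0.12 in Maintenance libraries. Predicted genes with few reads overlap both receptors: Gm32435 lies in Tgfbr1, with a mean of 160 counts, and Gm31292 in Tgfbr2, with 70.5 counts; the strand of counting is not given in the sources used here.

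Smad3, the receptor-activated SMAD that binds DNA, lies on chromosome 9 (63646767 to 63757994, minus strand). Abstinence libraries had 64.2, 43.6, 49.2, 64.1, 56.8, 41.2 and 52.9 CPM. Maintenance libraries had 32.1 CPM at the lowest, 40.2 CPM at the median and 48.5 CPM at the highest, and Saline libraries 44.2, 50.1 and 52.5 CPM. Maintenance libraries were the low group: all 7 Abstinence libraries lay above their median and all 8 Maintenance libraries below the Saline median, with some overlap in both cases. In Abstinence against Maintenance the fold was 1.33 (95% interval 1.14 to 1.55), a log2 fold change of 0.41 ± 0.11, with unadjusted p = 0.000795 and edgeR adjusted p = 0.0605. Maintenance against Saline gave -0.30 ± 0.10 (adjusted p = 0.202) and Abstinence against Saline 0.12 ± 0.11 (adjusted p = 0.999). DESeq2 called the difference between Abstinence and Maintenance (0.40 ± 0.11, adjusted p = 0.0135) and voom did not (0.29 ± 0.11, adjusted p = 0.203). With edgeR it passed without Abstinence replicate 6 (0.46, adjusted p = 0.0492) and without Maintenance replicate 5 (0.45, adjusted p = 0.0419), and it was 0.32 without Maintenance replicates 6, 7 and 8 (adjusted p = 0.212).

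The other SMADs did not approach the threshold. All lie on chromosome 18: Smad2 at 76241580 to 76310963 (plus strand), Smad4 at 73639009 to 73703780 (minus strand) and Smad7 at 75367529 to 75395935 (plus strand), where the predicted gene Gm41776, with a mean of 1.3 counts, overlaps it. Smad2, the partner of SMAD3 at the receptor, averaged 54.0 ± 5.71 CPM in Abstinence, 52.8 ± 11.1 CPM in Maintenance and 54.8 ± 5.44 CPM in Saline libraries. Smad4, the shared SMAD, averaged 13.1 ± 2.35, 13.4 ± 5.36 and 11.9 ± 2.28 CPM in the same 3 groups. Both extremes of Smad4 were Maintenance libraries, 6.74 CPM in replicate 6 and 23.3 CPM in replicate 7, the libraries with the fewest detected genes, and replicate 7 was also the lowest for Smad2, at 29.2 CPM. Smad7, the inhibitory SMAD that TGF-beta itself induces, averaged 50.7 ± 8.90, 51.6 ± 11.5 and 49.7 ± 8.60 CPM in Abstinence, Maintenance and Saline libraries. The log2 fold changes of these genes lay between -0.05 and 0.17 over the 3 comparisons, with adjusted p of at least 0.854, and their 95% intervals allowed changes of up to 0.33 in size for Smad7, 0.29 for Smad2 and 0.59 for Smad4.

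Ski, the nuclear repressor that binds SMADs and recruits histone deacetylases, lies on chromosome 4 (155154075 to 155222592, minus strand). Abstinence libraries had 118, 123, 124, 128, 112, 117 and 104 CPM. Maintenance libraries had 72.7 CPM at the lowest, 98.5 CPM at the median and 109 CPM at the highest, and Saline libraries 95.7, 113 and 122 CPM. Again Maintenance was the low group: 6 of 7 Abstinence libraries exceeded every Maintenance library, and all 8 Maintenance libraries lay below the Saline median. Ski averaged 118 ± 8.13 CPM in Abstinence and 94.6 ± 12.3 CPM in Maintenance libraries, a fold of 1.25 (95% interval 1.11 to 1.40) and a log2 fold change of 0.32 ± 0.08, with unadjusted p = 0.000515 and edgeR adjusted p = 0.0509. It was called by DESeq2 (0.31 ± 0.08, adjusted p = 0.00934) and by voom (0.35 ± 0.08, adjusted p = 0.0140). Without Maintenance replicate 8, the lowest of all libraries, the edgeR value was 0.26 ± 0.07 (adjusted p = 0.0596), and it passed without Maintenance replicate 5 (0.33, adjusted p = 0.0464) or replicate 7 (0.34, adjusted p = 0.0337). Maintenance against Saline gave -0.24 ± 0.08 (adjusted p = 0.156) and Abstinence against Saline 0.08 ± 0.08 (adjusted p = 0.999).

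Skil, the related repressor that TGF-beta both degrades and induces, lies on chromosome 3 (31095058 to 31122577, plus strand) and did not approach the threshold either. It averaged 504 ± 84.3 CPM in Abstinence, 475 ± 137 CPM in Maintenance and 512 ± 67.7 CPM in Saline libraries. Maintenance libraries held both the lowest value, 298 CPM in replicate 5, and the highest, 737 CPM in replicate 7. The log2 fold change was 0.09 ± 0.14 in Abstinence against Maintenance, -0.02 ± 0.14 in Abstinence against Saline and -0.11 ± 0.14 in Maintenance against Saline (adjusted p = 0.927, 0.999 and 0.864).

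**Figure D2:**
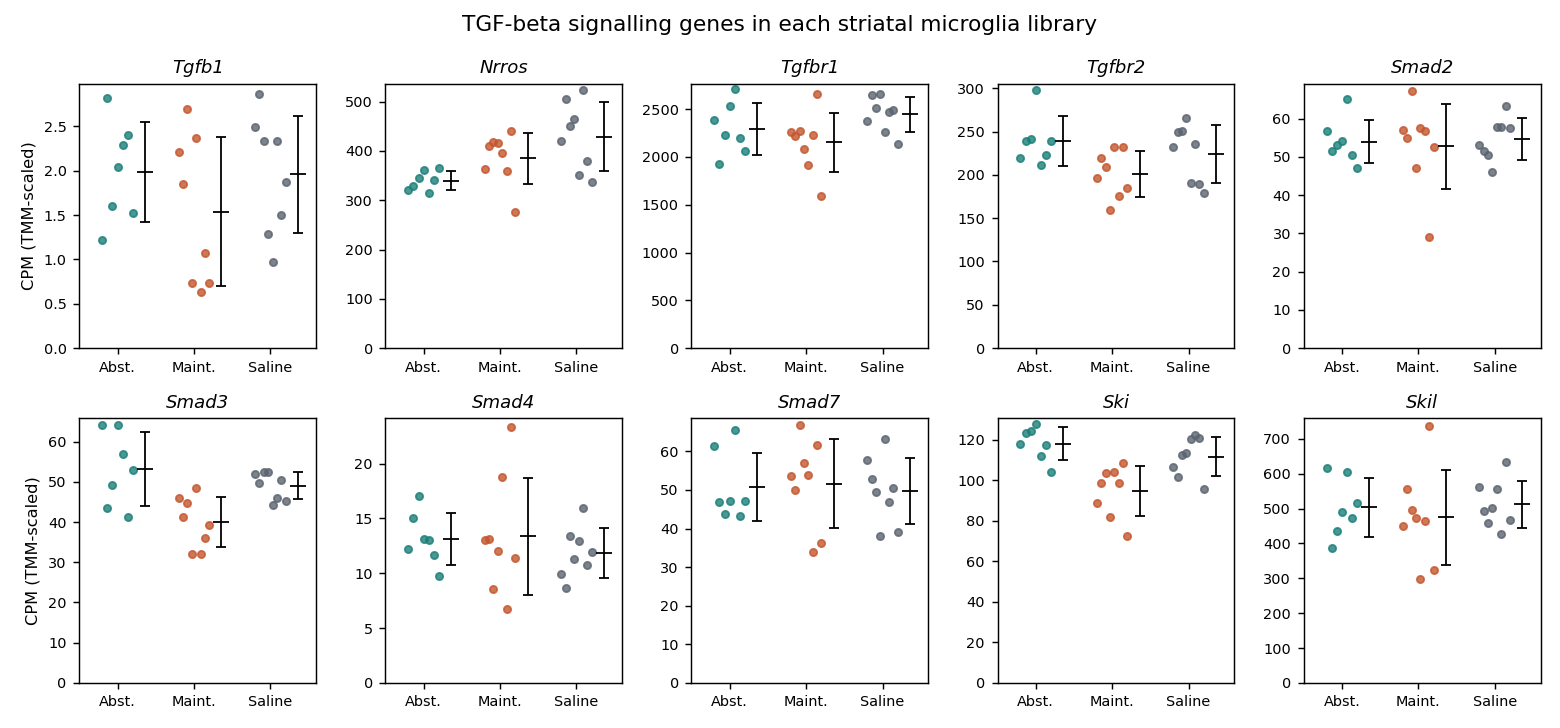
Level of each member in CPM (linear axes from 0), 1 point per library, in Abstinence, Maintenance and Saline libraries from left to right, with the mean and SD beside each group. Abstinence libraries of Nrros lie in a narrow band from 315 to 365 CPM, and Maintenance libraries lie lowest for Ski and Smad3.

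Over the 10 members together, 0 were called in Abstinence against Maintenance, where edgeR called 0.949% of all tested genes (0.397% higher and 0.552% lower), 0 in Abstinence against Saline, and 0 in Maintenance against Saline, where it called 0.707% (0.335% higher and 0.372% lower). At an unadjusted p under 0.05 there were 3 members in Abstinence against Maintenance (Ski, Smad3 and Tgfbr2), 1 in Abstinence against Saline (Nrros) and 3 in Maintenance against Saline (Ski, Smad3 and Tgfbr1), and the shares over all genes were 11%, 4.39% and 11.8%. DESeq2 called 2, 0 and 0 members, where it called 471, 36 and 351 of all genes, and voom 1, 1 and 0, where it called 331, 184 and 411. The edgeR counts over all genes were 153, 3 and 114. The members' median log2 fold change was 0.09 in Abstinence against Maintenance, 0.02 in Abstinence against Saline and -0.16 in Maintenance against Saline, where the median of all genes was 0.01 each time.

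Of the 10 members, 8 had a negative fold change in Maintenance against Saline, where 49.4% of all genes did, and 7 a positive one in Abstinence against Maintenance, where 50.8% did. These comparisons share the Maintenance libraries, so the counts are not independent of each other. The members were also chosen with earlier results of these data known, so the counts describe them and test nothing. Without Maintenance replicate 8 the counts were 8 and 7, and the medians -0.12 and 0.02, against -0.03 and 0.03 over all genes. Without replicates 6, 7 and 8 the counts were 6 and 5.

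**Figure D3:**
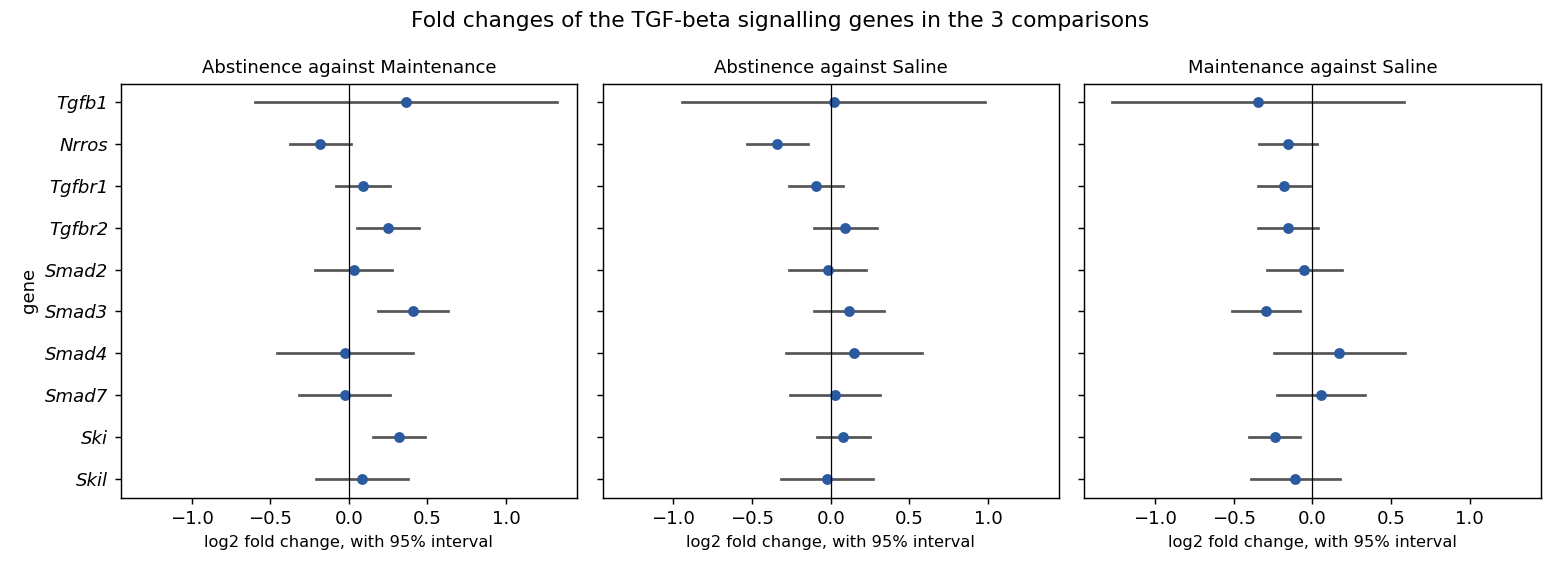
Log2 fold change of each member with its 95% interval from edgeR in Abstinence against Maintenance, Abstinence against Saline and Maintenance against Saline. The intervals of Ski, Smad3 and Tgfbr2 lie above 0 in the first comparison and that of Nrros below 0 in the second. Those of Ski, Smad3 and Tgfbr1 lie below 0 in the third, and Tgfb1 has the widest intervals in all 3.

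Beyond the members, 8 lists of related genes were examined, 90 genes of which 85 were tested. In Abstinence against Maintenance, edgeR called 3 list genes lower and 0 higher, where it called 0.949% of all genes. In Abstinence against Saline it called 0 (0.0186% of all genes), and in Maintenance against Saline 2 higher and 0 lower (0.707% of all genes). At an unadjusted p under 0.05 there were 18, 1 and 19 of 85, against 11%, 4.39% and 11.8% of all genes. DESeq2 called 5, 0 and 5 list genes, voom 4, 0 and 5, and edgeR on the compared groups alone 1, 0 and 0. Leaving out 1 library gave 2 to 4 in Abstinence against Maintenance, 0 in Abstinence against Saline and 0 to 2 in Maintenance against Saline, with 0 without Saline replicate 1, 3, 4 or 6. The genes called were Ncor1 and Crebbp, which encode chromatin regulators that work against and with SMAD proteins, and Apoe, a lipid carrier that rises in microglia deprived of TGF-beta.

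Ncor1 encodes the nuclear receptor corepressor, which SKI uses to silence its targets. It averaged 40.7 ± 3.80 CPM in Abstinence and 56.7 ± 11.2 CPM in Maintenance libraries (log2 fold change -0.48 ± 0.11, edgeR adjusted p = 0.0225). It was higher in Maintenance libraries than in Saline libraries, which averaged 40.8 ± 3.26 CPM (0.48 ± 0.10, adjusted p = 0.0261). Abstinence against Saline gave -0.01 ± 0.11 (adjusted p = 0.999). The call in Abstinence against Maintenance ended without Abstinence replicate 2 or 3 (adjusted p = 0.0564 and 0.0624) and with the compared groups alone in the fit (-0.49 ± 0.12, adjusted p = 0.0981). The call in Maintenance against Saline ended with marker covariates (0.44 ± 0.14, adjusted p = 0.310), with the compared groups alone (0.48 ± 0.11, adjusted p = 0.0672) and without Maintenance replicate 1 or 2 or Saline replicate 1, 3, 4 or 6 (adjusted p of 0.0515 to 0.0554). Of the other 6 corepressor and degradation genes none was called, and the most abundant, the deacetylase Hdac1 and the ubiquitin ligase Rnf111 (Arkadia), which marks SKI and SKIL for degradation, differed in Abstinence against Maintenance by 0.06 ± 0.08 and 0.06 ± 0.11.

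Crebbp, the histone acetyltransferase CBP that SMAD3 recruits, averaged 159 ± 21.0 CPM in Abstinence and 205 ± 23.3 CPM in Maintenance libraries (-0.37 ± 0.08, edgeR adjusted p = 0.0197). The call held in 33 of 34 settings and ended with the compared groups alone in the fit (-0.38 ± 0.09, adjusted p = 0.0886). In Maintenance against Saline libraries, which averaged 168 ± 11.2 CPM, its value of 0.29 ± 0.08 did not pass (adjusted p = 0.0784). Abstinence against Saline gave -0.08 ± 0.08 (adjusted p = 0.999). None of the other 7 tested SMADs and SMAD partners was called.

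Among the ligand-side genes, 0 of 12 tested were called in any comparison. The most abundant were the integrin chains that free TGF-beta from its latent complex. Itgb5 averaged 248 ± 16.3 CPM in Abstinence, 275 ± 35.4 CPM in Maintenance and 280 ± 22.0 CPM in Saline libraries, and in Abstinence against Saline it was -0.18 ± 0.08 on the log2 scale (unadjusted p = 0.0284, adjusted p = 0.999). Itgav averaged 128 ± 16.2, 109 ± 15.7 and 117 ± 15.2 CPM in the same 3 groups. No other receptor of the family was called among 11 tested; the most abundant were the coreceptor Eng, at 129 ± 9.85, 118 ± 16.2 and 125 ± 11.3 CPM, and the bone morphogenetic protein receptor Bmpr2, at 67.1 ± 11.2, 83.0 ± 15.8 and 66.6 ± 6.64 CPM. Nor was any of 9 negative regulators, of which the repressor Tgif1 and the receptor-binding Fkbp1a were the most abundant, or any of 10 general TGF-beta targets. Of the targets, the AP-1 gene Junb was 0.37 ± 0.12 in Abstinence against Maintenance and -0.28 ± 0.11 in Maintenance against Saline (adjusted p = 0.135 and 0.301), and the stress-response gene Atf3 was -0.15 ± 0.13 and 0.33 ± 0.13 (adjusted p = 0.811 and 0.263).

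**Figure D4:**
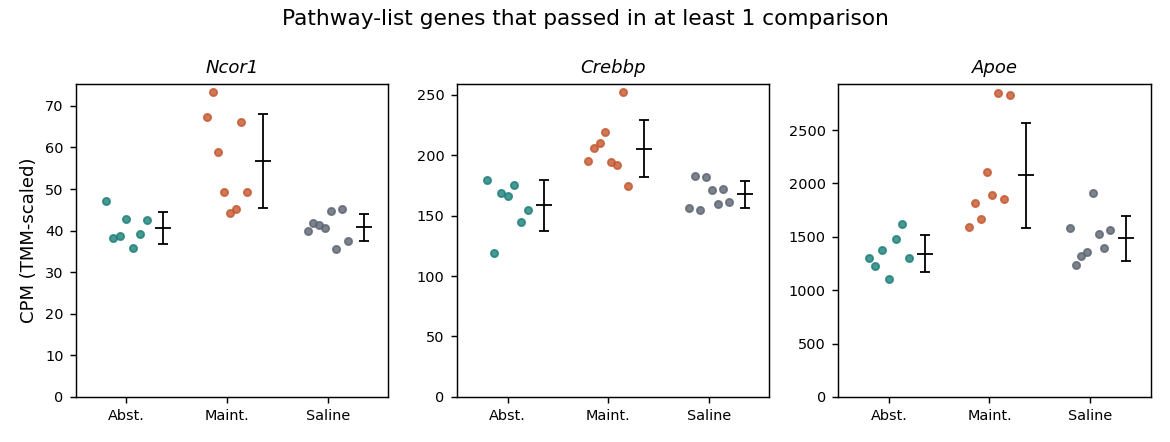
Level in CPM (linear axes from 0) of the 3 list genes called in at least 1 comparison, 1 point per library, in Abstinence, Maintenance and Saline libraries, with the mean and SD beside each group. Maintenance libraries lie highest for Ncor1, Crebbp and Apoe, and Abstinence and Saline libraries cover similar ranges.

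Homeostatic microglial genes are known to need TGF-beta, and 17 of them were listed, 6 of which are the microglia markers above. None was called. Their median log2 fold change was 0.04 in Abstinence against Maintenance, with 14 of 17 positive, 0.00 in Abstinence against Saline, with 8 positive, and -0.11 in Maintenance against Saline, with 2 positive. Over all genes, 50.8%, 51.3% and 50.6% were positive in the same order, with a median of 0.01 each time. Without Maintenance replicate 8 the positive counts of the 17 genes were 9, 7 and 5. The closest to the threshold was Olfml3, a secreted microglial glycoprotein, at 0.39 in Abstinence against Maintenance (edgeR adjusted p = 0.0529) and -0.29 in Maintenance against Saline (adjusted p = 0.168). It was named after its values were seen. The abundant purinergic receptor P2ry12 differed by -0.02 ± 0.08 in Abstinence against Maintenance.

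The 11 genes known to rise in microglia that lack TGF-beta signalling had a median log2 fold change of -0.17 in Abstinence against Maintenance, with 2 positive, 0.03 in Abstinence against Saline, with 6 positive, and 0.09 in Maintenance against Saline, with 10 positive. The shares positive over all genes were 50.8%, 51.3% and 50.6% in the same order. Mrc1, Cd163 and Ms4a7, named here for this overlap, belong both to this list and to the border macrophage markers. Of the 11 genes only Apoe was called. It averaged 1344 ± 169 CPM in Abstinence and 2075 ± 496 CPM in Maintenance libraries (-0.63 ± 0.12, edgeR adjusted p = 0.00759). It was also called higher in Maintenance than in Saline libraries, which averaged 1487 ± 212 CPM (0.48 ± 0.11, adjusted p = 0.0456). Abstinence against Saline gave -0.15 ± 0.12 (adjusted p = 0.999) and was not called. The first call held in 34 of 34 alternative settings and the second in 15 of 34. The second ended without Maintenance replicates 6, 7 and 8 (0.28 ± 0.09, adjusted p = 0.203), with marker covariates (0.59 ± 0.16, adjusted p = 0.205), with the compared groups alone (0.48 ± 0.12, adjusted p = 0.102), with upper-quartile scaling (adjusted p = 0.0510), with no filter on low counts (adjusted p = 0.0570), and without any 1 of Abstinence replicates 1, 2, 3, 5 and 7, Maintenance replicates 4, 6 and 8, and Saline replicates 1, 2, 3, 4, 6 and 7 (0.40 to 0.49, adjusted p of 0.0506 to 0.110). Astrocytes, choroid plexus and border macrophages also express Apoe. The summed border macrophage markers were 115 to 170 CPM in Abstinence, 127 to 231 CPM in Maintenance and 112 to 203 CPM in Saline libraries. The part of border macrophages in the Apoe result and in the counts of positive genes was not tested. Cd74, the most abundant of the antigen-presentation genes listed, was -0.34 ± 0.25 in Abstinence against Maintenance.

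**Figure D5:**
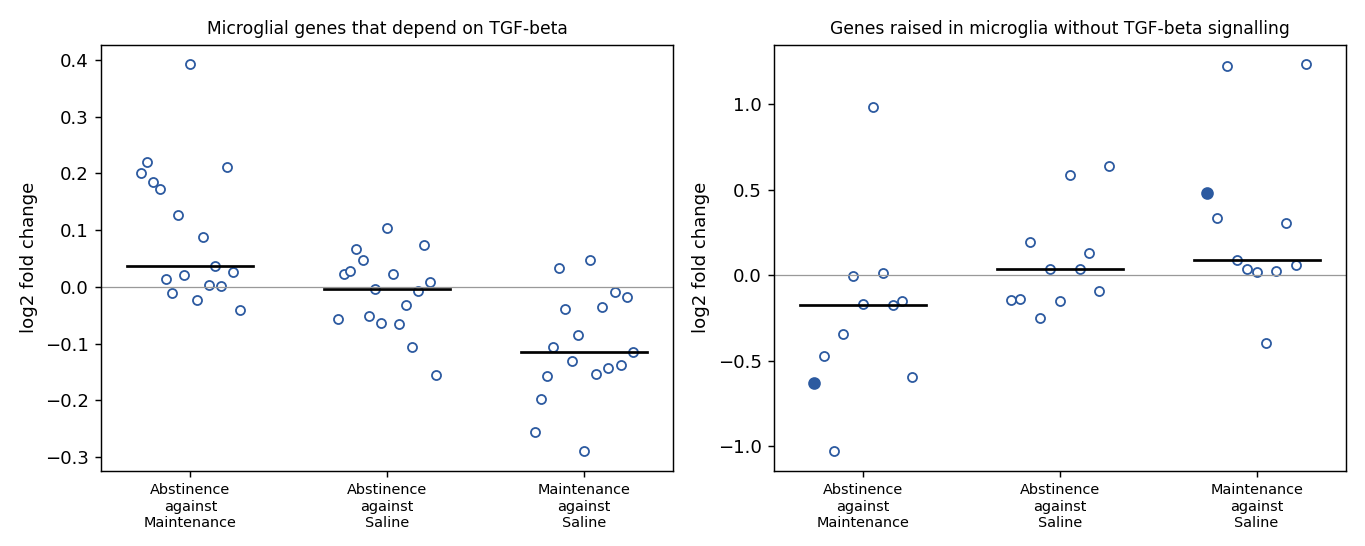
Log2 fold changes of 17 microglial genes that depend on TGF-beta and of 11 genes that rise in microglia without TGF-beta signalling, 1 point per gene, in Abstinence against Maintenance, Abstinence against Saline and Maintenance against Saline, with filled points at adjusted p under 0.05 and a bar at the median (the panels have different scales). The filled points of the right panel are Apoe, in Abstinence against Maintenance and in Maintenance against Saline. The medians of the left panel are 0.04, 0.00 and -0.11.

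Within groups, the members did not vary as a block. Over the 23 libraries, with each gene's log2 level centred on its group mean, Spearman's rho between pairs of members ran from -0.44 for Nrros and Smad2 to 0.69 for Nrros and Tgfbr2. Smad7 and Skil had 0.58 and Tgfbr1 and Skil 0.51, whereas Ski and Skil had 0.14 and Ski and Smad3 0.15. These are descriptions of libraries that share depth, isolation and cell mixture. With the mean of the 6 microglia markers, centred the same way, rho was 0.80 for Tgfbr2, 0.70 for Nrros and 0.63 for Tgfb1. It was 0.49 for Ski, 0.45 for Smad3 and -0.31 for Skil. With the means of the astrocyte and oligodendrocyte markers, rho was 0.55 and 0.49 for Skil and 0.25 and 0.23 for Smad7. It was -0.57 and -0.51 for Tgfbr2 and -0.47 and -0.13 for Tgfb1.

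Among 9458 tested genes of sufficient level, those whose pattern was most like Nrros over the 23 libraries were the dipeptidase Cndp2 (rho 0.85), the guanine nucleotide exchange factor Vav1 (0.80), the lysosomal phospholipase Pla2g15 (0.77), Paqr7 (0.77) and Lrrc25 (0.75). For Tgfbr1 they were Lpcat1 (0.86), Zfp710 (0.81), Plagl2 (0.81), Ptafr (0.79) and Dnmt3a (0.78). For Skil they were the histone demethylase Kdm6b (0.94), the kinase Map3k1 (0.88), the transcription factor Klf4 (0.88) and the splicing factor Srsf2 (0.86).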

How the data were processed

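The submitters' processing notes list STAR 2.7.10a and StringTie 2.1.5 beside Trim Galore 0.6.7, cutadapt 1.18 and DESeq2 1.38.3, and the build mm10 (GRCm38); order, settings and strand are not given in the sources used here. Both deposited tables hold whole-number read counts per gene symbol. The first, with 23 libraries, was used throughout; the second lists 17 of them with the same counts (0 of 611592 values differed). The highest correlation of log2 CPM between 2 libraries was 0.959.

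Genes were kept with filterByExpr (minimum count 10, minimum total 15), which left 16121. All libraries entered 1 quasi-likelihood fit by group (edgeR 4.0.16, TMM factors, robust), with Benjamini-Hochberg adjustment over all tested genes for each comparison, a threshold of 0.05 and no adjustment across the 3 comparisons. The script was tested on simulated data. Alternatives used DESeq2 1.42.0, limma 3.58.1 (voom), other scalings and filters, marker covariates and fewer libraries. Log2 CPM used a prior count of 2. Totals of at least 54970954 counts make counting error small for all members but Tgfb1. Exon lengths and positions came from GENCODE vM21 (GRCm38) and promoters from RefSeq (GRCm38.p6), matched by symbol and used for 6 of the 10 members. Members on chromosome 18 (Smad2, Smad4 and Smad7) were left out of the promoter search.

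The members and gene lists were chosen with earlier results of these data known. The text gives values in every library or by lowest, median and highest for members with the 3 smallest unadjusted p and for Nrros and Tgfb1. It names from each list every gene that passed and the 2 of highest mean log2 CPM, and the 5 genes most like Nrros, Tgfbr1 and Skil by rho among genes of mean log2 CPM of at least 2. Genes outside this rule are said to be so, and 2 genes that the rule selects are not reported here.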

Additional observations from a re-analysis of the deposited data

Results flagged for a closer look

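In the Abstinence group, Tgfbr2 in replicate 4 stood apart from the other libraries of that group: it had 298 CPM, where the other 6 had 211 to 241 CPM. The gap to the nearest library was 0.653 of the group's range. It was the only such value among 30 groups of 7 or 8 libraries examined (10 members in 3 groups), where chance alone flags about 1 in 20. Without this library, the log2 fold change of Tgfbr2 was 0.19 in Abstinence against Maintenance, against 0.25 with it.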

How the results depend on the processing

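The 3 comparisons were refitted under 34 settings. Members called in Abstinence against Maintenance, 0 in the reported fit, were 2 with a 1 CPM filter, 2 with DESeq2 and 1 with voom, and 0 to 2 when each library was left out in turn, with Ski and Smad3 passing without Maintenance replicate 5, Ski without Maintenance replicate 7 and Smad3 without Abstinence replicate 6. In Abstinence against Saline, 1 member (Nrros) passed with voom and 1 with the 17 libraries. No member passed in Maintenance against Saline in any of the 34 settings.

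Genes called among all tested were 153 in Abstinence against Maintenance, 3 in Abstinence against Saline and 114 in Maintenance against Saline. In that order, DESeq2 gave 471, 36 and 351, voom 331, 184 and 411, the 17 libraries 238, 56 and 176, and fits of the compared groups alone 64, 5 and 57. With marker covariates Abstinence against Saline gave 0 and Maintenance against Saline 23, with the 1 CPM filter Abstinence against Maintenance gave 242 and Abstinence against Saline 6, and without Maintenance replicates 6, 7 and 8 Abstinence against Saline gave 15. Leaving out 1 library gave 89 (Abstinence replicate 3) to 265 (Maintenance replicate 8), 1 to 15 (Saline replicate 8) and 42 (Saline replicate 3) to 197 (Saline replicate 8). Same-numbered libraries did not vary together (22 pairs, correlation of deviations -0.116 to 0.0919); with the replicate number as a block, 126, 4 and 69 genes and 0, 0 and 0 members passed.

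Small log2 fold changes changed sign, 48 times in all, each without passing; the cause was not tested. In Abstinence against Maintenance, Tgfb1 was -0.0021 without Maintenance replicates 6, 7 and 8 and -0.0066 with 17 libraries, Smad2 -0.082 with voom, -0.079 without replicates 6, 7 and 8 and -0.085 with 17 libraries, and Smad4 0.088 with voom and 0.0037 with the block. In Abstinence against Saline, Tgfb1 was -0.059 with voom, -0.00091 with the block, -0.0898 with 17 libraries and -0.14 with covariates, Smad2 0.0122 with voom and 0.0200 with 17 libraries, and Smad7 -0.0286 with voom, -0.0286 with the block and -0.069 with covariates. In Maintenance against Saline, Tgfb1 was 0.0107 without replicates 6, 7 and 8, Tgfbr2 0.013 with covariates, Smad2 0.094 with voom, 0.051 without replicates 6, 7 and 8 and 0.11 with 17 libraries, and Smad7 -0.039 with covariates. Leaving out 1 library gave ranges across 0 for Smad2 (-0.0655 to 0.083), Smad4 (-0.13 to 0.13) and Smad7 (-0.10 to 0.031) in Abstinence against Maintenance, for Tgfb1 (-0.091 to 0.12), Smad2 (-0.069 to 0.0133), Smad7 (-0.0436 to 0.077) and Skil (-0.079 to 0.031) in Abstinence against Saline, and for Smad2 (-0.10 to 0.037) and Smad7 (-0.0037 to 0.12) in Maintenance against Saline.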
